A study of Mus musculus with 13 samples.

Results

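The intervals described here are the sites on wild type mouse thymocyte chromatin at which Rad21 was found and neither NIPBL nor Med1 was. They were selected by overlap of the authors' peak intervals: an interval of the Rad21 list was kept when it shared no base with any interval of the NIPBL list or of the Med1 list. The rule left 16445 of the 27207 Rad21 intervals, or 60.4% (95% Clopper-Pearson interval 59.9 to 61.0%). Of the rest, 9019 overlapped NIPBL without Med1, 1174 overlapped both, and 569 overlapped Med1 without NIPBL. These numbers follow from the rule and are a description.

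Cohesin is a ring of the subunits Smc1a, Smc3 and Rad21 that holds DNA strands together and forms loops along a chromosome. NIPBL, with its partner Mau2, loads cohesin on DNA and drives loop extrusion. The zinc finger protein CTCF halts cohesin at the sites where it binds, so that cohesin is often found away from where it was loaded. Med1 is a subunit of Mediator, the coactivator that links transcription factors at enhancers to RNA polymerase II at promoters. In developing thymocytes cohesin is known for its part in the rearrangement of the T cell receptor alpha locus.

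All 3 lists came from sorted CD4+CD8+ double-positive thymocytes, immature T cells that carry both coreceptors, of wild type mice on a mixed C57BL/6 and 129 background. One ChIP-seq library was made for each protein, so there was no replicate to give a spread and no test between groups was possible. The percent intervals given here cover counting error alone, and neighbouring intervals of a chromosome are not independent. The Rad21 lysate was prepared in 800 mM NaCl with deoxycholate, and the NIPBL and Med1 lysates in 150 mM NaCl without it, so the protein, the antibody and the buffer cannot be told apart. The labels do not say how many animals were pooled. The 2 input libraries, the 4 Hi-C libraries and the 2 Rad21 KO RNA-seq libraries among the 13 samples were not analysed here.

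The lists differed in length and in the width of their intervals. Rad21 had 27207 intervals of 161 to 1644 bp that covered 8.77 Mb, NIPBL had 51994 of 154 to 6056 bp that covered 20.9 Mb, and Med1 had 15112 of 156 to 6057 bp that covered 5.96 Mb. An interval absent from a list may lie below that list's threshold, and the depth of the ChIP libraries is unknown, so the absence of NIPBL or Med1 is the absence of an interval and not a measured zero. Taken alone, the NIPBL list left 17014 Rad21 intervals without overlap and the shorter Med1 list left 25464.

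The labelled cell type was checked in the 2 wild type RNA-seq libraries, which had 6633506 and 6500819 counts and for which the labels give no strain. All 12 markers of double-positive thymocytes were present, with a summed level of 20441.8 and 18850.4 CPM, where CPM is the count per 1000000 counts of the library. The recombinase gene Rag1 stood at 6837.3 and 6261.2 CPM, Cd8a at 2464.6 and 2247.4 CPM and Cd4 at 1604.7 and 1270.9 CPM. The summed levels were 1.06 and 1.38 CPM for the 3 B cell markers, 26.8 and 32.3 CPM for the 3 myeloid markers, 3.01 and 2.00 CPM for the 4 thymic epithelial markers, 1.81 and 0.461 CPM for the 2 erythroid markers in the table, and 1.81 and 0 CPM for the 1 NK cell marker in the table. The 2 markers of earlier CD4-CD8- cells summed to 21.9 and 24.6 CPM, nearly all of it from Il2ra. RNA of the mapped proteins was present in both libraries, with 299 and 259 CPM for Rad21, 870 and 885 CPM for Nipbl, 334 and 296 CPM for Med1, and 248 and 245 CPM for Ctcf. These RNA libraries are not the cells that were fixed for ChIP.

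Rad21-only intervals typically lay kilobases from the nearest site of the loader. The median gap from the edge of a Rad21-only interval to the nearest NIPBL interval was 12.5 kb, with quartiles of 4.06 and 32.7 kb. Within 1 kb of a NIPBL interval lay 1437 of them, or 8.74% (8.31 to 9.18%), within 5 kb 29.0% (28.3 to 29.7%) and within 50 kb 83.5% (82.9 to 84.1%). The 569 Rad21 intervals with Med1 and without NIPBL lack NIPBL by the same rule. Their median gap to NIPBL was 5.16 kb, and 25.1% (21.6 to 28.9%) lay within 1 kb of a NIPBL interval. They overlap Med1 by the rule, and 39 of them lay on chromosome Y, which carried 30.3 NIPBL intervals per Mb. These classes were not compared at equal NIPBL density, so the contrast is a description. Farther than 100 kb from NIPBL lay 1200 intervals, or 7.30% (6.90 to 7.71%) of the Rad21-only ones.

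Med1 was more distant still. The median gap from a Rad21-only interval to the nearest Med1 interval was 43.9 kb, and 4800 of the 16445 intervals, or 29.2% (28.5 to 29.9%), lay over 100 kb from one. For 79.8% of Rad21-only intervals the nearest NIPBL interval was closer than the nearest Med1 interval, in a comparison of lists of 51994 and 15112 intervals. Rad21 intervals that overlapped NIPBL but not Med1 offer a comparison in which both groups lack Med1 by the same rule. Rad21-only intervals lay at a median of 43.9 kb from Med1 (95% interval of the median 42.5 to 45.2 kb), against 26.3 kb (25.3 to 27.4 kb) for Rad21 intervals with NIPBL and without Med1. Within 5 kb of a Med1 interval lay 10.0% of the Rad21-only intervals, against 18.8% of those with NIPBL. The groups were split by NIPBL overlap, which the rule used, and were not compared at equal interval density. This contrast is therefore also a description.

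**Figure D1:**
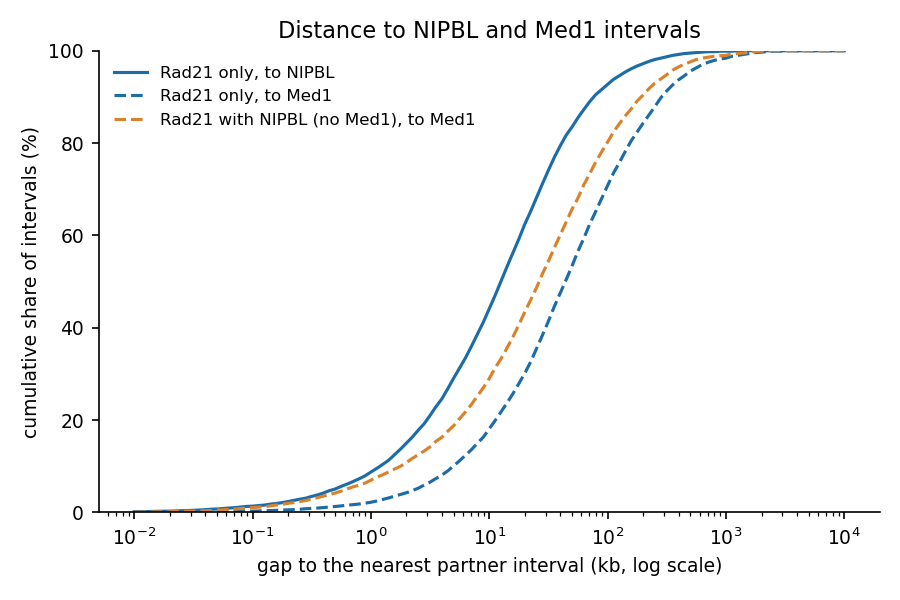
Cumulative share of intervals (%) against the gap in kb (log scale) to the nearest NIPBL interval (solid line) or Med1 interval (dashed lines). Rad21-only intervals (blue) reached 29.0% within 5 kb of NIPBL and 10.0% within 5 kb of Med1, and the Rad21 intervals with NIPBL (orange) reached 18.8% within 5 kb of Med1.

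Few intervals sat at the edge of the rule. Among Rad21-only intervals, 141, or 0.857%, had a gap of up to 50 bp to a NIPBL or Med1 interval, and 3 touched one with a gap of 0 bp. The sources do not state whether starts count from 0 or from 1. Counted from 1, these 3 would overlap by 1 bp and 16442 intervals would remain. These 3 were chr10:41293380-41293791, which touched Med1, and chr10:122197893-122198152 and chr11:57911819-57912196, which touched NIPBL. On the other side of the rule, 132 Rad21 intervals, or 1.23% of the other Rad21 intervals, shared under 50 bp with a partner. The smallest overlap was 1 bp, in 4 intervals, among them chr17:46774111-46774383 and chr5:20207230-20207593, both with NIPBL. The median overlap of the other Rad21 intervals was 256 bp. Of the other Rad21 intervals, 91.3% were covered over at least 50% of their length by 1 of the partner lists.

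The most remote Rad21-only intervals lay megabases from either partner. The farthest, chr14:6035576-6035797, was 222 bp wide, 2.56 Mb from the nearest NIPBL interval, 2.65 Mb from the nearest Med1 interval and 1.43 Mb from the nearest other Rad21 interval. The other two formed a close pair on chromosome 15. They were chr15:18762102-18762366 and chr15:18751156-18751494, 10.6 kb apart, and lay 5.91 and 5.90 Mb from NIPBL and 2.41 and 2.40 Mb from Med1.

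The widths of Rad21-only intervals fell in a narrower band than those of the other Rad21 intervals. Their median width was 302 bp (95% interval 301 to 303 bp) with quartiles of 272 and 335 bp, against a median of 330 bp (328 to 331 bp) with quartiles of 288 and 380 bp for all other Rad21 intervals. Against the classes taken singly, the median was 331 bp for those with NIPBL alone and for those with both partners, and 306 bp (300 to 315 bp) for those with Med1 alone, an interval that holds the 302 bp of Rad21-only intervals. The widest Rad21-only interval had 743 bp, against 1644 bp for the widest of the others. Over 500 bp wide were 91 Rad21-only intervals, or 0.553%, against 6.11% of the other Rad21 intervals. That share was 5.80% for those with NIPBL alone, 10.2% for those with both partners and 2.64% for those with Med1 alone.

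Named by width, the 3 widest Rad21-only intervals were chr10:98560053-98560795 with 743 bp, chr12:76490337-76491049 with 713 bp and chr11:11688365-11689066 with 702 bp. The first lay 8.66 kb from NIPBL and 15.4 kb from Med1, the second 1.47 kb from NIPBL and 376 kb from Med1, and the third 13.4 and 18.9 kb from them. The narrowest was chrX:120337850-120338016 with 167 bp, which lay 120 kb from NIPBL and 11.2 kb from Med1.

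A wide interval meets a partner more easily, so the share was also taken by width. When all Rad21 intervals were ranked by width into 10 groups, the Rad21-only share was 64.4% in the narrowest group (161 to 247 bp), 71.3, 71.7, 71.7 and 69.7% in the next 4 groups, and then lower in each wider group. It was 48.6% (46.7 to 50.6%) at 365 to 402 bp and 27.0% (25.4 to 28.8%) in the widest group, from 403 bp up. Counted by whether the midpoint of the Rad21 interval lay outside every partner interval, a measure that does not grow with the width of the Rad21 interval and that was chosen after the data were seen, the share was 73.7% in the third group, 51.9% in the ninth and 32.7% in the widest.

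**Figure D2:**
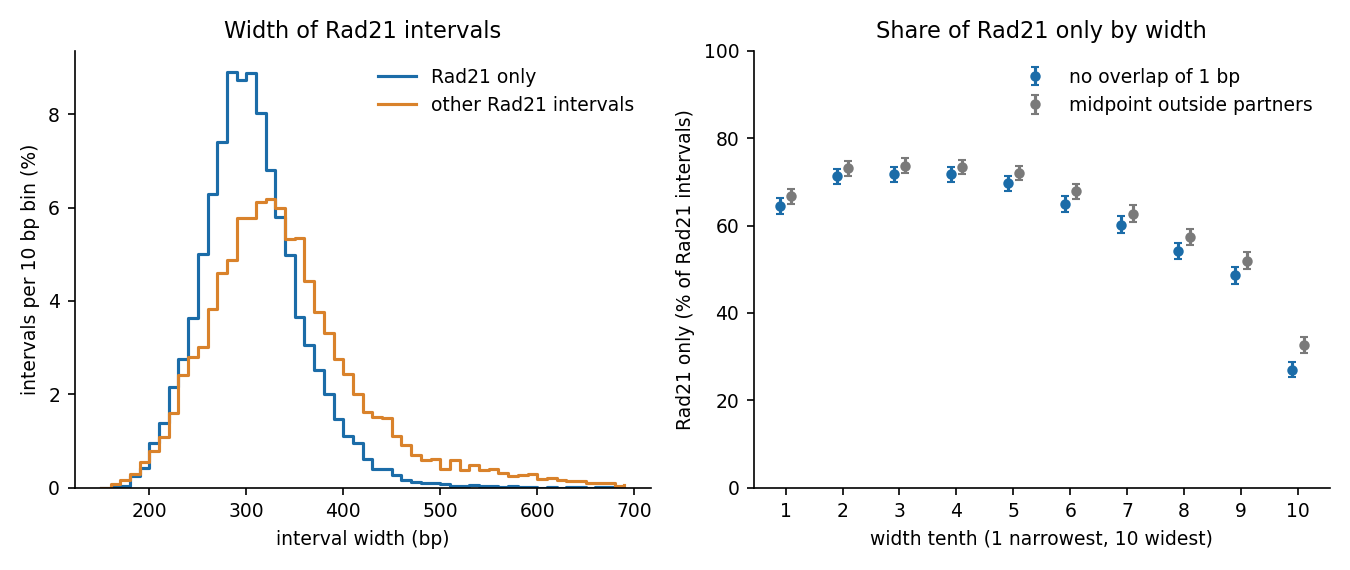
Left, percent of intervals per 10 bp of width up to 700 bp for Rad21-only intervals (blue) and all other Rad21 intervals (orange). Right, Rad21-only share (%) in 10 groups of rising width with 95% Clopper-Pearson bars, by the rule of 1 bp (blue) and by the midpoint (grey); both were lowest in the widest group, at 27.0 and 32.7%.

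Among the Rad21-only intervals themselves, width changed little with distance to the loader while spacing changed much. The median width was 305 bp (301 to 307 bp) for the 1437 within 1 kb of NIPBL, 303 bp for the 5499 at 5 to 20 kb and 292 bp (289 to 296 bp) for the 1200 beyond 100 kb. The median gap to the nearest Rad21 interval was 4.67 kb (4.15 to 5.41 kb) in the first of these groups, 13.0 kb (12.6 to 13.4 kb) in the second and 80.5 kb (70.9 to 90.5 kb) in the third. The median gap to Med1 was 24.1, 32.1 and 217 kb in the same 3 groups. Rad21-only intervals far from NIPBL were also far from Med1 and from other Rad21 intervals. A Rad21 neighbour that overlaps NIPBL cannot lie much nearer than the nearest NIPBL interval does. Part of the rise in spacing is therefore fixed by the grouping, and these values are a description.

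Rad21-only intervals were spaced more widely than the other Rad21 intervals. The median gap to the nearest Rad21 interval of any class was 14.5 kb (14.2 to 15.0 kb) for Rad21-only intervals, 6.96 kb (6.65 to 7.27 kb) for those with NIPBL alone, 5.80 kb (4.88 to 6.88 kb) for those with both partners and 11.1 kb (9.22 to 12.6 kb) for those with Med1 alone. A Rad21 neighbour within 1 kb was found for 5.48% (5.14 to 5.84%) of Rad21-only intervals, against 17.1% (16.4 to 17.8%) of all other Rad21 intervals. Within 100 kb, 93.0% of Rad21-only intervals and 98.2% of the others had a Rad21 neighbour. The classes came from regions of unlike density. In windows of 1 Mb with 1 to 5 NIPBL intervals, where Rad21 was sparse, 84.2% of Rad21 intervals were Rad21-only. With over 40 NIPBL intervals, where Rad21 was dense, 50.8% were. Spacing was not compared at equal density. Some close pairs of the others also lay on a single NIPBL interval, as counted below.

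Along the chromosome, the next Rad21 interval was more often Rad21-only after a Rad21-only interval than after another Rad21 interval. It was Rad21-only after 67.9% (67.2 to 68.6%) of Rad21-only intervals, against 49.1% (48.1 to 50.0%) of the other Rad21 intervals. Over all Rad21 intervals the share was 60.5%. By class it was 49.4% after those with NIPBL alone, 43.9% after those with both partners and 55.1% (50.9 to 59.2%) after those with Med1 alone. Where the next interval lay within 2 kb, the shares after Rad21-only and after other Rad21 intervals were 61.2% (58.0 to 64.3%) and 23.7% (21.6 to 25.8%). At 10 to 50 kb they were 64.6% (63.4 to 65.8%) and 52.4% (50.9 to 53.9%), and beyond 200 kb 81.8% (79.9 to 83.7%) and 83.1% (78.8 to 86.8%). The difference between the classes was largest within 2 kb, and beyond 200 kb the counting intervals of both shares overlapped. Of the 1108 neighbouring pairs within 2 kb in which both Rad21 intervals overlapped NIPBL, 286, or 25.8% (23.3 to 28.5%), lay on a single NIPBL interval, so their shared class is not 2 separate findings.

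**Figure D3:**
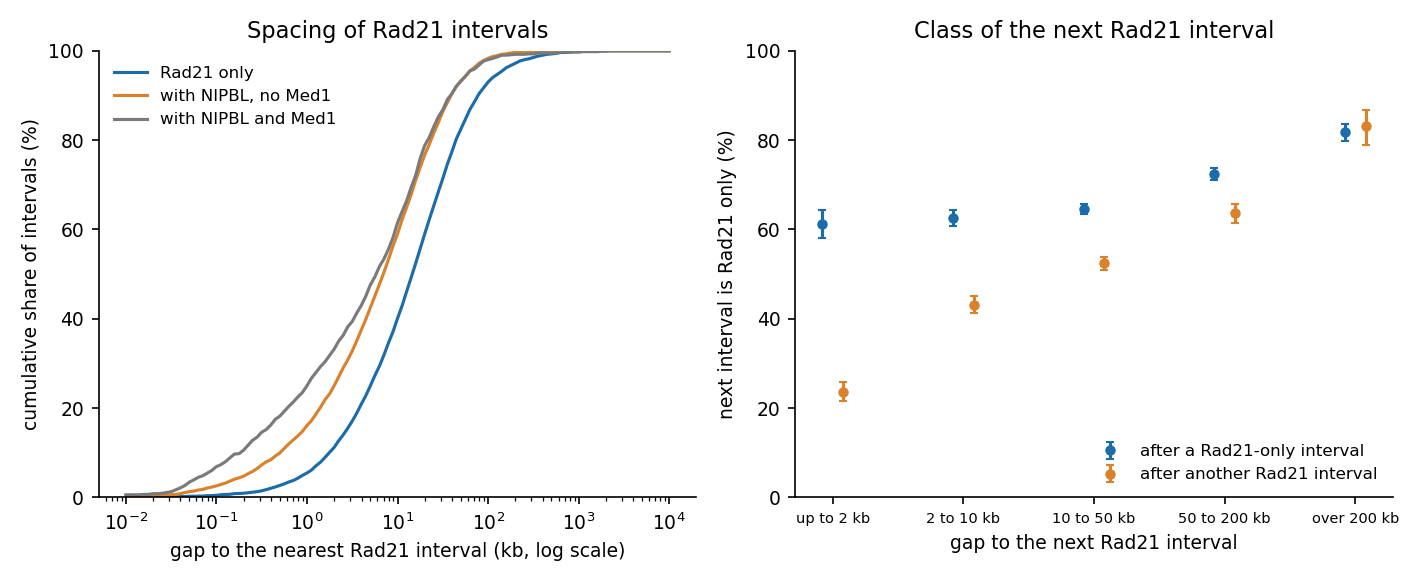
Left, cumulative share of intervals (%) against the gap in kb (log scale) to the nearest Rad21 interval for Rad21-only intervals (blue), those with NIPBL and without Med1 (orange) and those with both (grey). Right, share (%) of next Rad21 intervals that were Rad21-only after a Rad21-only interval (blue) and after another Rad21 interval (orange), by the gap between them, with 95% Clopper-Pearson bars; within 2 kb the shares were 61.2 and 23.7%.

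Counted as runs, the 16445 intervals formed 5287 unbroken series of consecutive Rad21 intervals with no NIPBL or Med1 overlap. A run of 1, a Rad21-only interval with other classes on both sides or at a chromosome's end, occurred 1935 times and held 11.8% of the intervals. Runs of 10 or more numbered 210, held 2632 intervals, or 16.0%, and had a median span of 1.45 Mb. Intervals in these long runs lay at a median of 24.8 kb (23.5 to 26.4 kb) from NIPBL and 21.8 kb from the nearest Rad21 interval, against 3.77 kb (3.50 to 4.18 kb) and 9.06 kb for those in runs of 1. Run length was built from the same overlaps as the rule, since a run of 1 has a neighbour with a partner on each side, so this contrast in distance is a description. The median widths were 298 bp in long runs and 305 bp in runs of 1.

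The longest run held 26 Rad21-only intervals, 213 to 378 bp wide, on chrX:131448136-137036434. Its span of 5.59 Mb held 17 NIPBL intervals and 1 Med1 interval, and its largest gap between neighbours was 2.28 Mb. The next 2 runs, with 24 intervals each, were both on chromosome 9. The run on chr9:47936645-48780977 was compact, with 0.844 Mb, 10 NIPBL intervals and 9 Med1 intervals inside it. The run on chr9:53598866-55872946 spanned 2.27 Mb, with 22 NIPBL intervals and 2 Med1 intervals. By the rule no NIPBL interval overlaps a Rad21 interval of a run, so the numbers of NIPBL and Med1 intervals in the spaces between are what these counts add.

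The space between 2 neighbouring Rad21-only intervals was free of both partners in 5422 of 11158 cases, or 48.6% (47.7 to 49.5%). Stretches of 5 or more Rad21-only intervals with no NIPBL or Med1 interval between them numbered 144. The longest held 9 intervals over 359 kb, on chr6:85954244-86312895, and was picked after its length was seen.

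**Figure D4:**
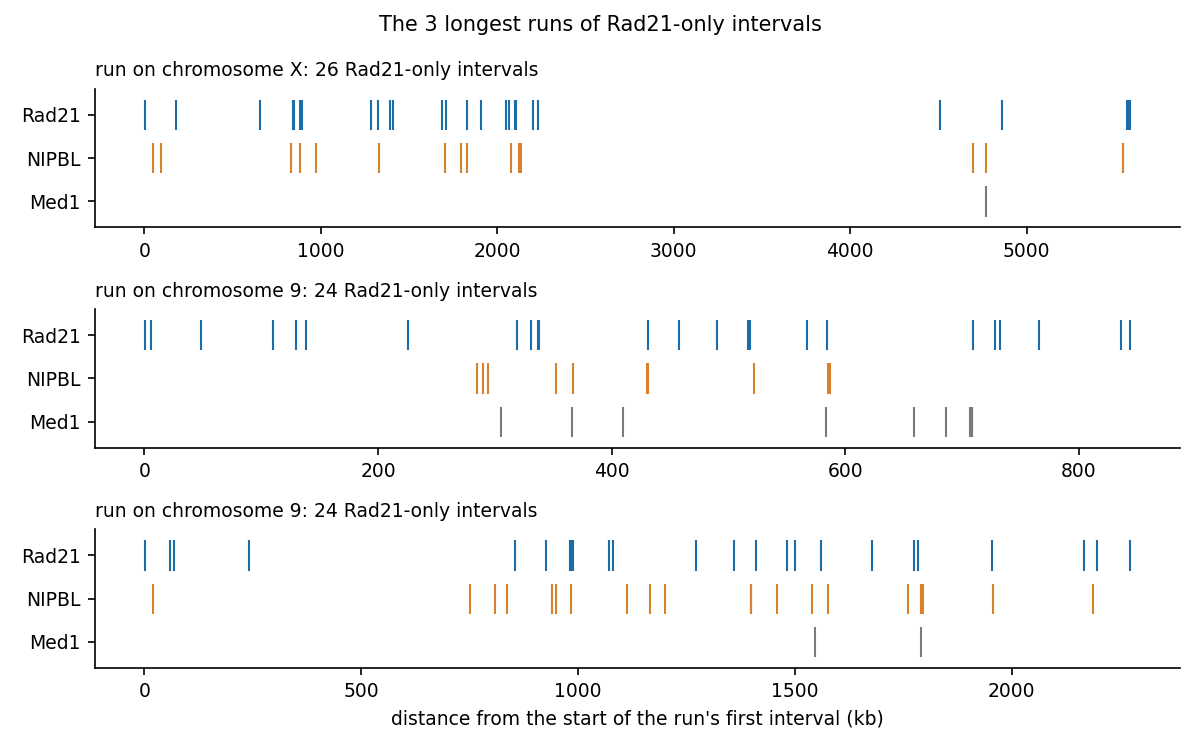
Positions of Rad21, NIPBL and Med1 interval midpoints (vertical ticks) in the 3 longest runs of Rad21-only intervals, by distance in kb from the start of the run's first interval. Each run held NIPBL ticks between the Rad21 ticks, 17, 10 and 22 from top to bottom.

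In windows of 1 Mb, Rad21-only intervals were mostly found in the same parts of the genome as NIPBL and as the other Rad21 intervals. A Rad21-only interval lay in 1965 of 2650 windows, and another Rad21 interval in 1572. Windows with other Rad21 intervals and no Rad21-only interval numbered 33, while 426 held Rad21-only intervals alone. The mean number of Rad21-only intervals was 0.249 in the 623 windows with no NIPBL interval, 4.94 in windows with 6 to 10 NIPBL intervals and 15.3 in the 448 windows with over 40. The mean number of other Rad21 intervals in the same windows was 0.00482, 1.51 and 14.8. Across windows the Spearman correlation with the number of NIPBL intervals was 0.907 for Rad21-only intervals and 0.932 for the others, over 2650 windows that share their libraries, and of which 652 held no Rad21 interval. Between Rad21-only and other Rad21 intervals it was 0.848, so the match was not particular to NIPBL. Rad21-only intervals also lay in 102 windows with no NIPBL interval, which held 155 of them.

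As a share of Rad21 intervals, Rad21-only intervals made up 84.2% (82.0 to 86.2%) where 1 to 5 NIPBL intervals lay in the window and 50.8% (49.9 to 51.6%) where over 40 did. The rule used NIPBL overlap, so a fall of this share with NIPBL number is a description. The window with the most Rad21-only intervals, chr10:80000001-81000000, held 32 of them beside 35 other Rad21, 205 NIPBL and 30 Med1 intervals. The window chr11:98000001-99000000 held 31 beside 29 other Rad21 intervals and 143 NIPBL intervals. In chr1:133000001-134000000, with 29 Rad21-only intervals, 10 other Rad21 intervals and 58 NIPBL intervals were found.

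By chromosome, the share was similar on most autosomes and far lower on chromosome Y. Over the 19 autosomes it ran from 53.2 to 69.0%, with a median of 60.6%. The highest shares were on chromosome X with 74.0% (70.1 to 77.6%), or 409 of 553 Rad21 intervals, chromosome 14 with 69.0% (66.0 to 72.0%) and chromosome 13 with 64.3% (61.4 to 67.1%). The counting intervals of chromosomes X and 14 overlapped. The lowest were on chromosome Y with 6.52% (2.43 to 13.7%), or 6 of 92, chromosome 17 with 53.2% (50.5 to 56.0%) and chromosome 11 with 54.2% (52.1 to 56.3%).

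On the autosomes the share was lower where NIPBL intervals, which the rule used, were denser. Chromosome X carried 4.41 NIPBL intervals per Mb up to the last interval, below the 13.2 to 39.4 per Mb of the autosomes, and 2.46 Rad21-only intervals per Mb, against 4.97 to 9.96 on the autosomes. Across the 19 autosomes the share of Rad21-only intervals had a Spearman correlation of -0.686 and a Pearson correlation of -0.800 with NIPBL intervals per Mb. Rad21-only intervals per Mb varied 2.01-fold between the sparsest and the densest autosome, and the other Rad21 intervals 3.47-fold.

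On chromosome Y both partners and the other Rad21 intervals were dense. The other Rad21 intervals stood at 29.6 per Mb, against 2.42 to 8.41 on the autosomes, and the Rad21-only intervals at 2.07 per Mb. Of its 92 Rad21 intervals, 46 overlapped both NIPBL and Med1, 39 Med1 alone and 1 NIPBL alone. The share with Med1 was 92.4%, against 13.7% on chromosome 17, 9.58% on chromosome 1 and 4.21 to 8.63% on the other autosomes. Chromosome Y carried 40.3 Med1 intervals per Mb over 2.90 Mb, against 15.1 on chromosome 17, 10.0 on chromosome 11 and 9.14 on chromosome 1. It carried 30.3 NIPBL intervals per Mb, against 39.4 on chromosome 11 and 29.4 on chromosome 17. Whether repeated sequence plays a part in the intervals on chromosome Y was not tested.

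**Figure D5:**
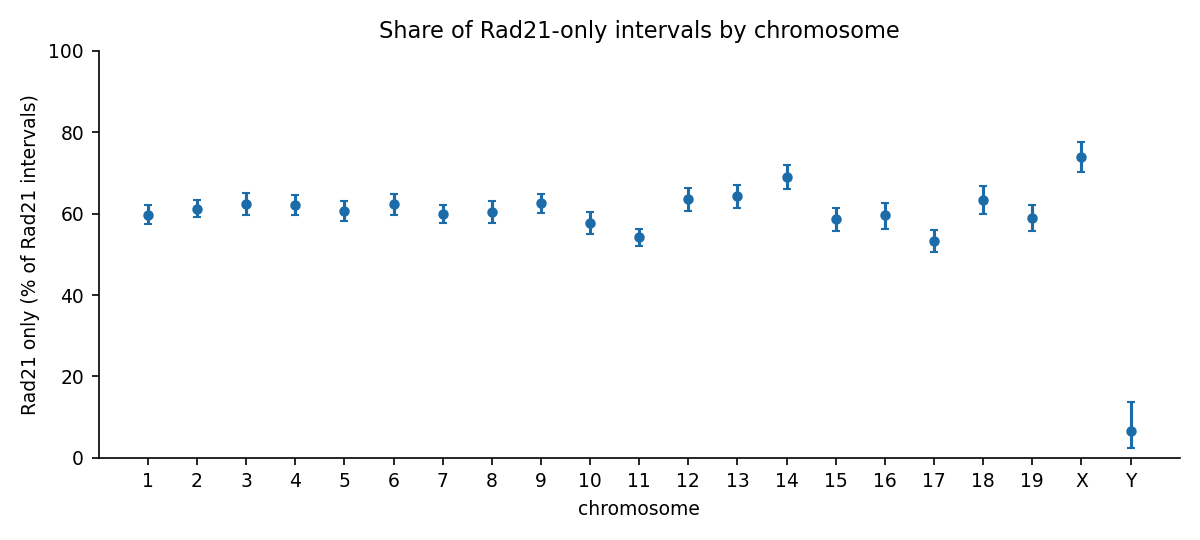
Share (%) of each chromosome's Rad21 intervals that were Rad21-only, with 95% Clopper-Pearson bars. The autosomes lay between 53.2 and 69.0%, chromosome X at 74.0% and chromosome Y at 6.52%.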

How the data were processed

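The peak lists that the authors deposited give the position of each interval in bp (chromosome, start, end) and nothing else, for 1 wild type library per protein. Positions are on mm9, per the submitters' processing notes. The file names point to filtered reads, removed duplicates and the peak caller SWEMBL. The aligner is not given in the sources used here, nor is the use of input. Whether starts are 0-based is not stated in the sources; they were read as such and are printed 1-based, and widths are end minus start. Intervals that shared 1 bp or more counted as overlapping, and gaps were taken edge to edge. Shares have 95% Clopper-Pearson intervals and medians 95% binomial order-statistic intervals. The interval functions (Python 3.11.15, pandas 2.3.3, scipy 1.17.1) were tested on simulated data and checked against bedtools 2.31.1.

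RNA-seq values were deposited by the authors as estimated count equivalents per gene, whole numbers here. CPM is the count divided by the library total and multiplied by 1000000. Symbols were found for 17342 of 17849 genes.

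No annotation or genome of build mm9 was used here, so intervals were not assigned to genes or searched for motifs, and no Rad21 KO comparison was made. The regions named follow a rule: the 3 longest runs, the 3 most remote, the 3 widest and the narrowest intervals, the 3 fullest windows, the 3 highest and lowest chromosomes and intervals at the threshold. Members, rules and lists were chosen with earlier results of these data known. Alternatives changed the overlap, margins, partner lists, interval widths and joining.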

Additional observations from a re-analysis of the deposited data

How the results depend on the processing

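In each of the 9 alternatives, the Rad21 intervals kept were narrower and farther from the nearest Rad21 interval than those not kept. They were also more often followed by a kept interval. The Med1 list alone kept intervals that overlap NIPBL, and the NIPBL list alone kept some that overlap Med1. All 9 re-cut the same lists, so they are not independent checks. Of 38 alternative values, 16 stayed within the counting interval of the value given, or within 1.5 times the number given, and 22 did not. The number was 16442 with touching intervals counted as overlapping, an alternative added after seeing the data. It was 25464 by the Med1 list alone and 9893 of 13621 in the wider 50% of each list. In that wider part the median width was 346 bp, the share within 5 kb of NIPBL 23.4%, the median gap to Rad21 25.4 kb and the share followed by a Rad21-only interval 77.7%. With overlap required over 50% of the Rad21 interval, or at its midpoint, the share within 5 kb was 32.7 or 32.0%, the gap 14.0 or 14.1 kb, the share followed 69.8 or 69.2% and the lowest chromosome, Y, 14.1 or 19.6%. With partners extended by 500 or 1000 bp, the gap was 15.3 or 15.9 kb and the share followed 66.5 or 65.5%, and Y stood at 2.17% with 1000 bp. The share within 5 kb was 27.5% between midpoints. On autosomes alone the highest share was 69.0% and the lowest 53.2%. In the wider 50% the rise in median width follows from the selection, and removing intervals can only lengthen the gaps of those that remain. With overlap required over 50% or at the midpoint, kept intervals may still overlap NIPBL and then count as within 5 kb of it. Part of the rise in that share follows from this. Such rules can only add kept intervals, and extended partners can only remove them. The direction of the change on chromosome Y was therefore fixed by the setting. The cause of the other shifts was not tested.

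No paired analysis was possible because the results come from no test and from 1 library per protein, which also leaves no replicate to leave out. The planned motif, transcription start and RNA comparisons, with their alternatives, were not run. The unknown ChIP depth limits what the lack of a NIPBL or Med1 interval can show.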
